A study of Mus musculus with 2 samples.

Results

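The contactin-associated protein genes of the mouse, Cntnap1, Cntnap2, Cntnap3, Cntnap4, Cntnap5a, Cntnap5b and Cntnap5c, were examined in a DamID profile of the DNA methyltransferase Dnmt1 in cleavage-stage embryos. A peak was counted for a gene when the authors' deposited table assigned it to that gene by name, and Cntnap5b stands there under its older symbol C230078M14Rik. Of 8226 peaks in the table, 27 were assigned to these 7 genes. The family was chosen by its numbers of assigned peaks, with Cntnap5b known to be among the genes with the most, so the counts and positions are given as a description and without a test.

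In DamID a protein is fused to Dam, a bacterial methyltransferase that methylates adenine within the letters GATC, and the marked DNA is then sequenced. The embryos came from BCF1 (C57BL/6 x CBA/CA) females of 5 weeks of age and were injected either with a Dnmt1-V5-Dam construct or with a Dam-only construct. For each construct 50 embryos of the 4- to 8-cell stage were pooled, giving 1 library per group (Dnmt1-Dam and Dam-only). How much of each fusion the embryos made is not given in the sources used here. Positions are those of the mm9 build. Each peak carries a height in each library, without a stated scale. Sequencing totals are not known, so neither is the depth. With 1 library per group there is no replicate check, and the intervals below cover counting error only.

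The Cntnap genes encode single-pass membrane proteins of the neurexin superfamily. Their best known work is done on myelinated axons. There Cntnap1, also called Caspr, joins contactin at the paranodal junction, where the myelin loops meet the axon. Cntnap2 holds potassium channels in the neighboring juxtaparanode together with a second contactin. Cntnap4 acts at synapses of inhibitory and dopaminergic neurons. Cntnap3 and the Cntnap5 genes are also expressed in the nervous system, and less is known of them. Several of these genes are very long and lie in DNA with few other genes.

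Dam can only mark DNA that holds its recognition sequence, so the start sites of the genes are shown first. RefSeq windows of the 250 bases before a start site were matched for 3 of the 7 genes (Cntnap2, Cntnap3 and Cntnap5b), in the GRCm38.p6 build, which is not the build of the peaks. GATC reads the same on both strands. It was found in 41.9% of 32851 windows of this length over all genes. The window at the start site of Cntnap5b held 1 copy, as did that at the first start site of Cntnap2, a second Cntnap2 window far inside the gene, and the Cntnap3 window. Below, the stretches that lie outside the RefSeq gene span and hold the copy are printed for Cntnap5b, which has the most peaks of the family, and Cntnap2, the longest member with a peak. They run 5′ to 3′ on the plus strand, with GATC in capitals.
Cntnap5b, chr1:99772151-99772245 (GRCm38.p6): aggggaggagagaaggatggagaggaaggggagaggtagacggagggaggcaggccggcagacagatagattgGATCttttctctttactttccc
Cntnap2, chr6:45059811-45060060 (GRCm38.p6): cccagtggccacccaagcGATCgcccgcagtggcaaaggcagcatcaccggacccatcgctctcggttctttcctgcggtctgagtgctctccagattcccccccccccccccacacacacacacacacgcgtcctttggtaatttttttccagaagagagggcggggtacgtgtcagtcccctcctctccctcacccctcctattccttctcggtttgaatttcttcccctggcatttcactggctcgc
The first base of GATC lay 177 bases before the start site of Cntnap5b and 232 bases before that of Cntnap2. CpG is the dinucleotide that Dnmt1 methylates. It occurred 12 times in the 250 bases before the Cntnap5b start site and 13 times before the first start site of Cntnap2. In the Cntnap3 window CpG occurred 11 times, and in the second Cntnap2 window 3 times. The median over all windows was 6 (interquartile range 2 to 16), and all of these counts lie within that range.

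None of the 27 Cntnap peaks lay in a promoter class or a CpG island context. Among all peaks, 6.73% fell in a promoter class (10 kb before the start site to 1 kb after it) and 6.61% in an island, shore or shelf. With 27 peaks, a share of 0 has an exact Clopper-Pearson upper bound of 12.8%, so neither absence could be told from these backgrounds at this number of peaks. Among the 5 genes with a peak, the nearest one to a start site lay 22.6 kb upstream, at Cntnap5b. The closest one downstream lay 40.3 kb inside the same gene.

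Of the 7 genes, 5 had an assigned peak (71.4%), where 22.7% of 21031 protein-coding genes did. The same 5 had a peak inside the body, as did 11.7% of the coding genes. Cntnap5b led with 15 peaks, followed by Cntnap5a with 6, Cntnap2 with 3, Cntnap5c with 2 and Cntnap4 with 1, while none was assigned to Cntnap1 or Cntnap3. Having 5 or more peaks was reached by 2 of the 7 (Cntnap5b and Cntnap5a), against 0.903% of coding genes. The 5 genes with a peak are 313 to 2241 kb long in the deposited table, where the median gene is 41.9 kb (interquartile range 14.8 to 111), and a longer gene offers more room for peaks. The background was not matched for length, so these counts do not by themselves set the family apart.

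**Figure D1:**
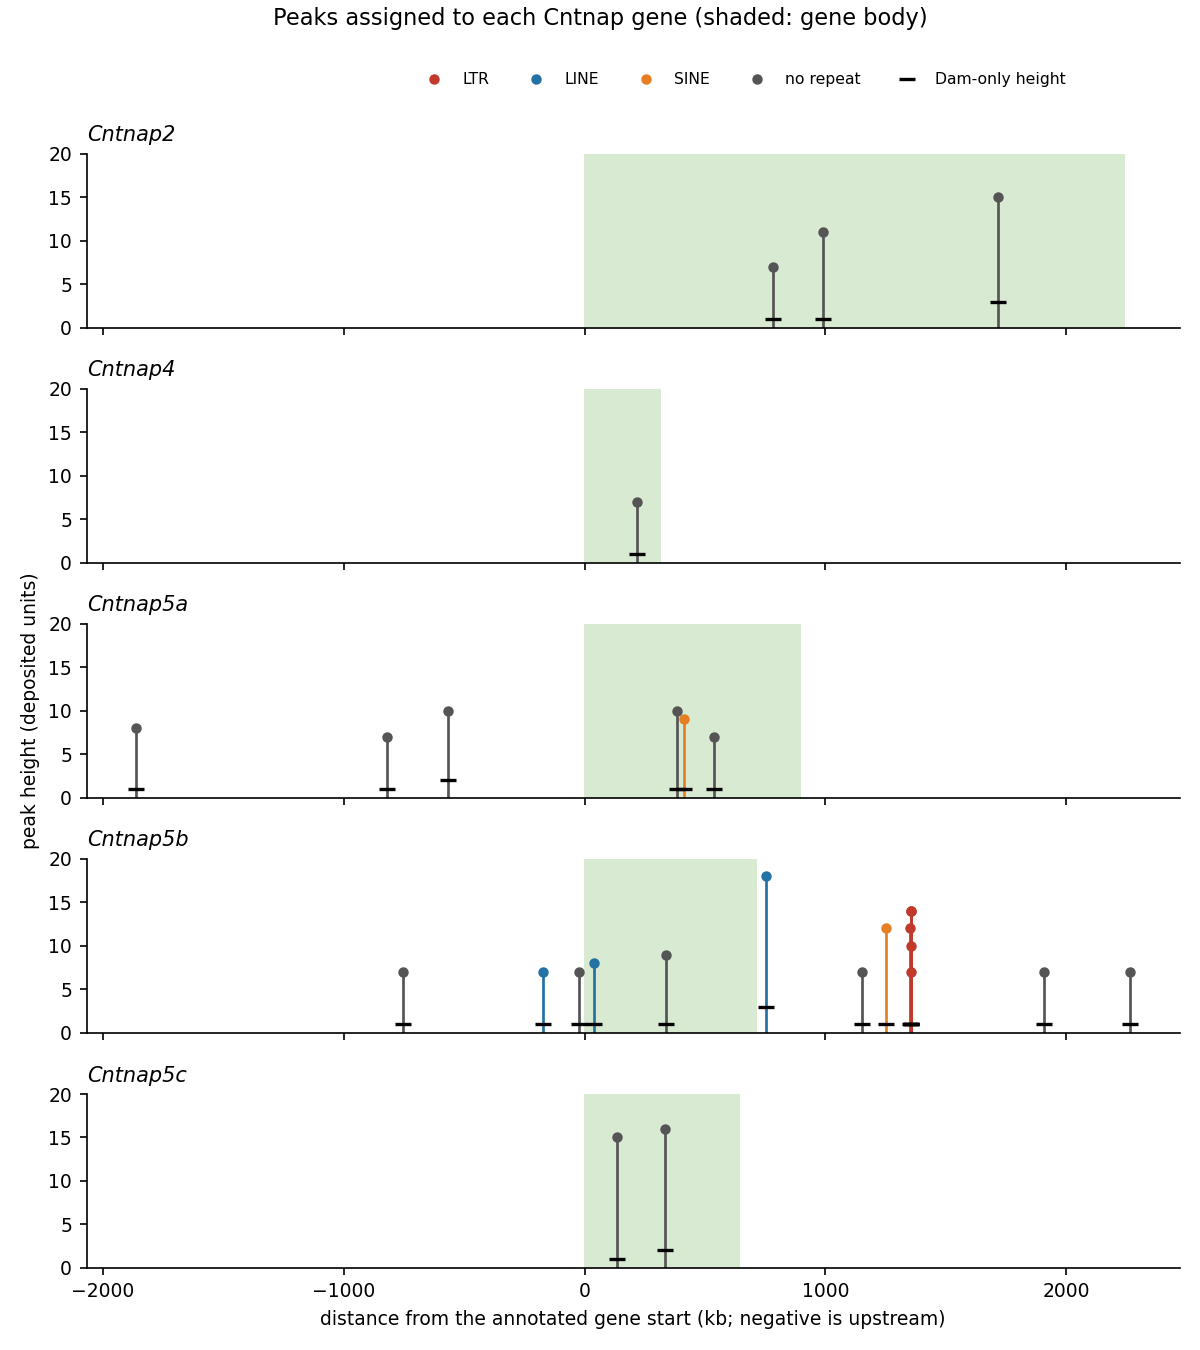
Peaks assigned to the 5 Cntnap genes with a peak, by distance from the annotated gene start in kb (negative values are upstream), with the gene body shaded. Each stem is the Dnmt1-Dam height of 1 peak, colored by the repeat class named at it, and each black dash is its Dam-only height; all peaks of Cntnap2, Cntnap4 and Cntnap5c lie inside the body, and 13 of 15 of Cntnap5b lie outside.

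Cntnap5b (chromosome 1, 101669342 to 102382519, plus strand, NM_172851) carried most of its peaks in the intergenic DNA around it. Upstream there were 3 peaks, each of height 7 against 1 for Dam-only. They lay at 756 kb (position 100913361, no repeat), 174 kb (101494871, LINE) and 22.6 kb (101646721, no repeat) before the gene start. These are all at the smallest Dnmt1-Dam height in the table. Inside the 713 kb body there were 2 peaks, both in its first 47.2%. The first, of 8 against 1 in a LINE, lay at 101709631, and the other, of 9 against 1 with no repeat, at 102006091. Whether they are intronic or exonic was not analysed here.

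Downstream of Cntnap5b lay 10 peaks, and these included the high ones. The highest of the whole family, of 18 against 3, lay in a LINE 39.9 kb past the end of the gene, at 102422381. A peak of 7 against 1 followed at 438 kb (102820221, no repeat) and one of 12 against 1 in a SINE at 539 kb (102921211). A run of 5 peaks in LTR sequence then stood 640 kb past the end. The last of the downstream peaks were 7 against 1 each, with no repeat, at 1193 kb (103575891) and 1552 kb (103934221). The outermost peaks on either side are thus at the floor of the table, while the peaks between 39.9 and 640 kb downstream range from 7 to 18.

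The run of LTR peaks spanned 410 bp. LTR elements are endogenous retroviruses and their remnants, one of the retroelement groups named in the title of the series. The first peak of the run, at 103022471, had a height of 12 and the next, 90 bp on, of 10. The middle peak, 160 bp from the first, was at the floor of 7. The last pair, at 340 and 410 bp, reached 14 each. Dam-only was 1 at all 5. The listed heights are thus lowest in the middle of the run and highest at its far end. Neighboring peaks of the run lie closer together than the length of the fragments kept, near 300 bp. Their heights may therefore not be independent, and no structure within the run can be read from them. With peaks no more than 1 kb apart joined, the table had 7717 runs, of which 4 held 4 or more peaks and 1 held 5 or more, namely this run. It was singled out after its values were seen. How reads that were duplicated or mapped to several places were treated is not known, and the part of this in these heights was not tested. Counted as 1 site, the run leaves Cntnap5b with 11 sites, and 1 gene in the table had more sites, as 1 gene had more peaks.

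**Figure D2:**
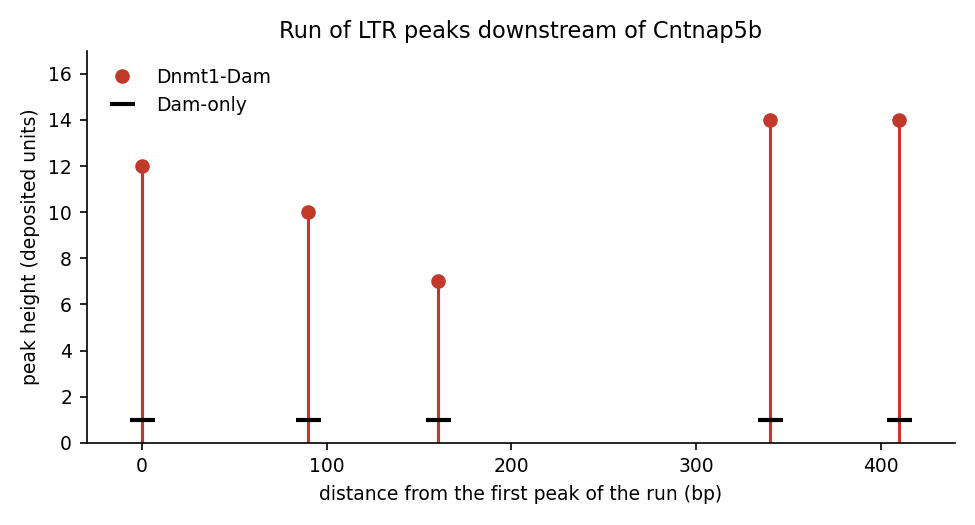
Heights of the 5 LTR peaks downstream of Cntnap5b in the Dnmt1-Dam library (red) and the Dam-only library (black dashes), by distance in bp from the first peak of the run. Dnmt1-Dam heights range from 7 to 14 and Dam-only heights are 1 throughout.

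Cntnap5a (chromosome 1, 117581714 to 118477251, plus strand, NM_001077425) divided its 6 peaks evenly between body and upstream DNA. Upstream, heights were 8 against 1 at 1861 kb before the gene start (115720281), 7 against 1 at 820 kb (116761241) and 10 against 2 at 569 kb (117012551), all with no repeat. Inside the 896 kb body they were 10 against 1 (117964411, no repeat), 9 against 1 (117993161, SINE) and 7 against 1 (118118481, no repeat). The 3 inner peaks sat between 42.7% and 59.9% of the way along the gene, the first pair 28.8 kb apart. Heights inside and upstream covered the same range, 7 to 10, and overlapped fully.

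Cntnap5c (chromosome 17, 57908993 to 58549765, plus strand, NM_001081653), the third gene of this subfamily, had 2 peaks and both were high. They reached 15 against 1 at 58045411 and 16 against 2 at 58241881, inside the 641 kb body and with no repeat named. Both exceeded every peak of Cntnap5a. Among the Cntnap5b peaks, the one of 18 alone lay above them.

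Cntnap2 (chromosome 6, 45010060 to 47251370, plus strand, NM_001004357) was the second longest gene in the table, at 2241 kb. The table gave it 3 peaks, all inside the body and all with no repeat. Heights were 7 against 1 at 45791771, 11 against 1 at 46000941 and 15 against 3 at 46726051. They lay 782, 991 and 1716 kb from the gene start, so the first 34.9% of the gene held none. The peak of 15 also had the highest Dam-only height in the family, 3, shared with the 18 against 3 peak of Cntnap5b.

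Cntnap4 (chromosome 8, 115093943 to 115406607, plus strand, NM_130457) had a single peak of 7 against 1 with no repeat, at 115313081, 70.1% of the way along its 313 kb body. This is the floor of the table.

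Cntnap1 and Cntnap3 had no assigned peak, and since the table lists a gene only with a peak, it gives no mm9 positions for them. For each, the nearest coding genes with a peak on either side were taken as bounds. The genes between the bounds therefore have no assigned peak by this choice, and the counts below are no sign of a peak-poor region. In RefSeq gene order, Cntnap1 lies on chromosome 11 between Stat5a and G6pc, with 23 other coding genes in between. The 483 kb between those genes held 1 peak, of 8 against 1, at 101224701 in the distal promoter class and assigned to G6pc. Cntnap3 lies on chromosome 13 between Cdc14b and Mfsd14b (Hiatl1 in the table), with 7 other coding genes. The 790 kb between these held no peak. In the RefSeq table, Cntnap1 is the shortest gene of the family and Cntnap3 the next shortest.

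The median height of the family equaled that of all peaks. The 27 Dnmt1-Dam heights ran from 7 to 18 with a median of 9 (interquartile range 7 to 12), against a median of 9 (7 to 11) for all 8226 peaks, whose highest was 202. At the floor of 7 lay 11 of 27 (40.7%, exact Clopper-Pearson 95% interval 22.4 to 61.2), against 26.8% of all peaks, and at 15 or more lay 4 (14.8%, 4.19 to 33.7), against 8.66%. Both intervals contain the share of all peaks. The 4 high peaks belonged to 3 genes, Cntnap2, Cntnap5b and Cntnap5c, where 2.98% of coding genes had a peak this high. The Dam-only height was 1 at 23 of 27 peaks (85.2%, 66.3 to 95.8), against 75.8%. No lower value is listed, and it is not stated whether 1 also stands for 0, so the ratios at these 23 peaks may not be true ratios. The ratio of the 2 heights ran from 5 to 15 with a median of 7 (7 to 10), against 8 (7 to 9) for all peaks, and is bounded from below because every listed peak has a Dnmt1-Dam height at least 6 above its Dam-only height.

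**Figure D3:**
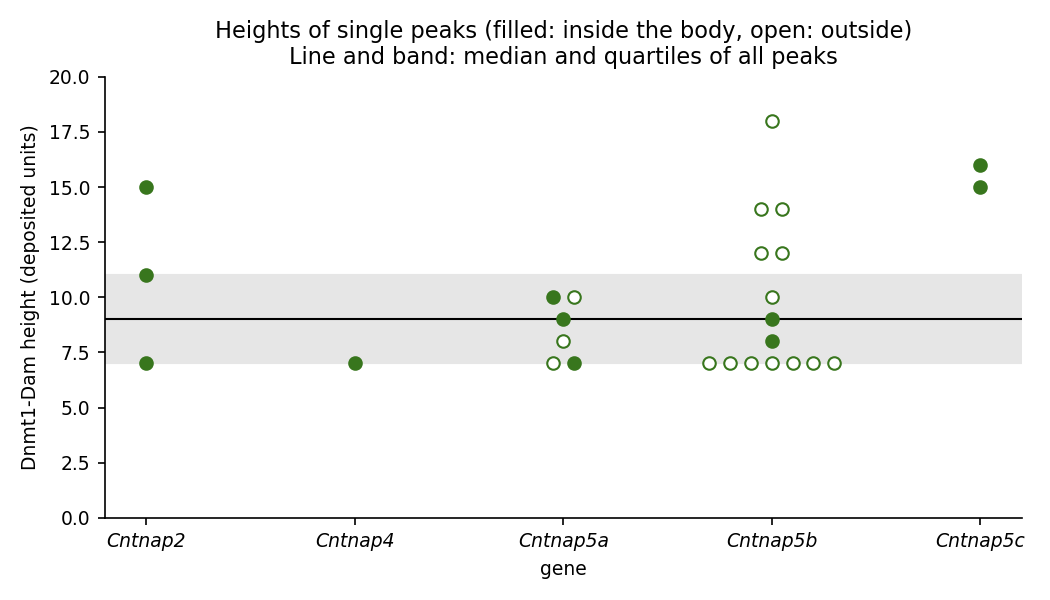
Dnmt1-Dam height of each of the 27 peaks by gene (filled, inside the gene body; open, outside), with the median of all peaks as a line at 9 and their quartiles, 7 and 11, as a band. Both Cntnap5c peaks lie above the band, all 6 of Cntnap5a lie within it, and 7 of 15 of Cntnap5b sit at 7.

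Inside the bodies lay 11 of 27 peaks (40.7%, 22.4 to 61.2), against 43.0% of all peaks. Without Cntnap5b it was 9 of 12 (75%, 42.8 to 94.5). Inside the bodies of all 5 genes the median height was 9, and for the 16 peaks outside it was 7.5. Over all peaks of the table the median was 9 inside bodies and 9 outside. Peaks at the floor made up 3 of 11 inside (27.3%, 6.02 to 61.0) and 8 of 16 outside (50.0%, 24.7 to 75.3), and these intervals overlap. Over all peaks, the floor held 25.7% inside bodies and 27.7% outside. Peaks of 15 or more were 3 of 11 inside (27.3%, 6.02 to 61.0) and 1 of 16 outside (6.25%, 0.158 to 30.2). These intervals overlap too, and over all peaks the shares were 9.08% inside and 8.34% outside. Each interval contains the share of all peaks on its side.

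Repeats were named at 2 of the 11 peaks inside the genes. The other 9 had no repeat (81.8%, 48.2 to 97.7), against 66.6% of all peaks inside a body, a share that the interval contains. The 2 with a repeat were the LINE peak of Cntnap5b and the SINE peak of Cntnap5a. Outside, retroelements (SINE, LINE or LTR) were named at 8 of 16 peaks (50.0%, 24.7 to 75.3), against 39.1% of all peaks outside a body, and all 8 belonged to Cntnap5b. With 1 peak per 1 kb run this became 4 of 12 (33.3%, 9.92 to 65.1), against 39.2%. The higher share outside the genes thus rests on the LTR run, which gives 5 of the 8. Over all 27 peaks, 10 were in retroelements (37.0%, 19.4 to 57.6), close to the 35.0% of all peaks. Without Cntnap5b it was 1 of 12 (8.33%, 0.211 to 38.5), and within Cntnap5b it was 9 of 15 peaks (60.0%, 32.3 to 83.7) or 5 of 11 sites (45.5%, 16.7 to 76.6). SINEs, at 17.1% of all peaks, were named at 2 of 27 (7.41%, 0.910 to 24.3).

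Peak density inside the genes was below that of the autosomes, within counting error. The bodies of the 5 genes cover 4.80 Mb in sum. Their 11 peaks give 2.29 per Mb (exact Poisson 95% interval 1.14 to 4.10). The autosomes as a whole had 3.25 per Mb, and the 367 other autosomal genes of at least 300 kb with an assigned peak had 3.80 (3.54 to 4.08) in their bodies. The interval of the family contains the first value and overlaps the interval of the other. By gene, density was 3.35 per Mb in Cntnap5a (0.691 to 9.79), 3.20 in Cntnap4 (0.0810 to 17.8), 3.12 in Cntnap5c (0.378 to 11.3), 2.80 in Cntnap5b (0.340 to 10.1) and 1.34 in Cntnap2 (0.276 to 3.91). These counts of 1 to 3 peaks do not separate neighbors in this order. Cntnap2 thus stands lowest with the longest body, and its interval still contains the chromosome 6 density of 2.56.

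Within 500 kb of either end of a body, all peaks of the table were counted whatever gene they were assigned to. Cntnap2 had none in this 1 Mb, which allows up to 3.69 per Mb. Cntnap5a had 1 peak, 7 against 1 in an LTR 484 kb past its end (118961681), assigned to Tsn. Cntnap5b had 4, all its own. Cntnap4 had 5, of which 4 lay between 363 and 461 kb past its end and were assigned to Mon1b, with heights of 7, 7, 7 and 9. Cntnap5c also had 5, assigned to Emr1, EG224916 and 2610034M16Rik, with heights of 7 to 9, below those of 15 and 16 inside the gene. Over the 5 genes the flanks held 15 peaks in 5 Mb, which is 3 per Mb (1.68 to 4.95) and overlaps the interval of the bodies. With flanks of 1000 kb, 2 genes had intervals that left out the autosomal 3.25. Cntnap4 lay above it with 7 per Mb (3.83 to 11.7), and Cntnap2 below it with 0.5 (0.0127 to 2.79). The intervals of Cntnap5a, Cntnap5b and Cntnap5c contained it.

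**Figure D4:**
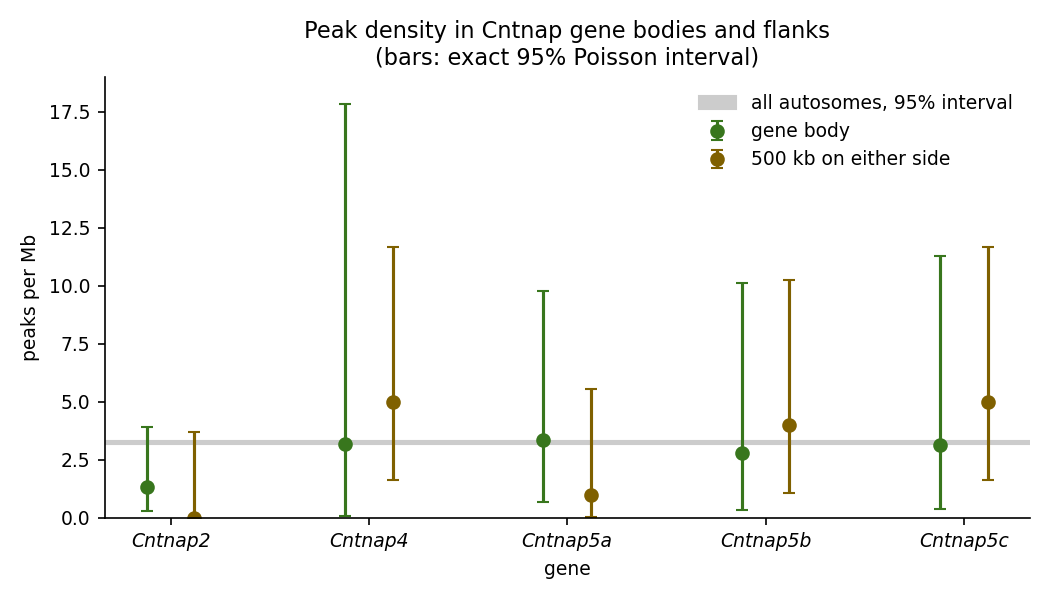
Peaks per Mb inside the body (green) and within 500 kb of either end (brown) for the 5 Cntnap genes with a peak, with exact 95% Poisson intervals; the gray band is the 95% interval of all autosomes. Bodies run from 1.34 (Cntnap2) to 3.35 (Cntnap5a) and flanks from 0 (Cntnap2) to 5 (Cntnap4 and Cntnap5c), and every interval reaches the band.

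Cntnap5b and Cntnap5a, the genes with the most peaks, lie in long gene-poor stretches. The bounds of each stretch in this paragraph are the nearest coding genes with a peak on either side. Cntnap5b stands in 6.67 Mb between Pam and Cdh20, with 2 other coding genes in RefSeq order. This stretch held 19 peaks, 15 of them assigned to Cntnap5b, or 2.85 per Mb (1.71 to 4.45). Cntnap5a stands in 6.43 Mb between Dsel and Tsn, with 1 other coding gene, and the stretch held 13 peaks, or 2.02 per Mb (1.08 to 3.46). Both intervals contain the autosomal 3.25. The other coding genes within these bounds have no assigned peak by this choice, so the densities are given as a description only. They also average over uneven parts. The 1000 kb downstream of Cntnap5b held 8 peaks (8 per Mb, 3.45 to 15.8), 5 of them in the LTR run. The 1000 kb upstream held 4 (4 per Mb, 1.09 to 10.2). Of the 27 peaks, 14 were more than 100 kb outside the gene they were assigned to (51.9%, 31.9 to 71.3), against 23.1% of all peaks, and 12 were more than 500 kb outside (44.4%, 25.5 to 64.7), against 5.09%. Cntnap5b supplied 11 of the 14, 5 of them in the LTR run. Without this gene 3 of 12 peaks lay more than 100 kb outside (25%, 5.49 to 57.2), and with 1 peak per 1 kb run over the whole family it was 10 of 23 (43.5%, 23.2 to 65.5). Beyond 500 kb, Cntnap5b supplied 9 of the 12, again with the 5 of the LTR run. Without Cntnap5b it was 3 of 12 (25%, 5.49 to 57.2), and with 1 peak per 1 kb run 8 of 23 (34.8%, 16.4 to 57.3). The background was not matched for gene-poor surroundings. All 16 outer peaks were nearer to their Cntnap gene than to any other gene in the table. This may follow from how the authors assigned peaks to genes, and was not tested. Cntnap5c, in 1.33 Mb with no other coding gene between Vmn2r120 and Pdzph1, had 5 peaks in its stretch (3.75 per Mb, 1.22 to 8.75). Cntnap4, in 1.62 Mb between Terf2ip and Mon1b, had 6 (3.72, 1.36 to 8.09).

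Among the 5 genes with a peak, the widest gaps were at Cntnap2. The gaps between neighboring peaks that reach into this gene were 1.57 Mb at its start and 1.63 Mb at its end. Among 8009 autosomal gaps, whose median was 167 kb, 1.74% and 1.59% were longer. A gap that spans a given point tends to be longer than one drawn from a list of gaps, so these shares overstate how unusual the gaps are. The longest gaps that touched the other 4 genes with a peak were 952 kb at Cntnap5a, 671 kb at Cntnap4, 447 kb at Cntnap5c and 416 kb at Cntnap5b.

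**Figure D5:**
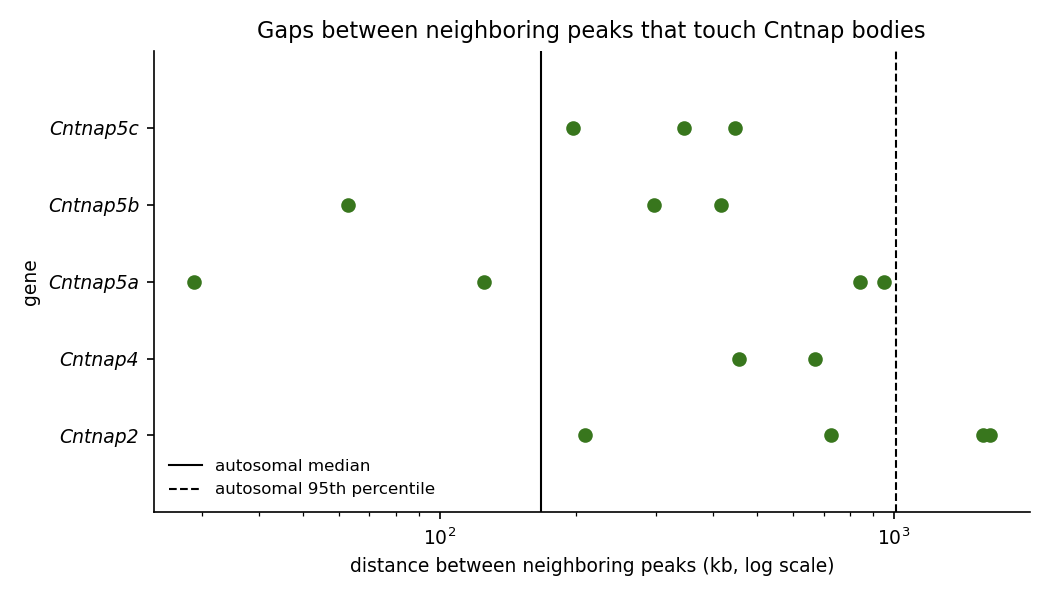
Distances in kb (log axis) between neighboring peaks for every gap that touches the body of a Cntnap gene, 1 point per gap, with the median (167 kb) and 95th percentile (1012 kb) of all autosomal gaps as solid and dashed lines. The 2 gaps past the dashed line both belong to Cntnap2.

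Genes with a similar split of peaks were looked for among the 30 genes with 8 or more. The nearest to Cntnap5b in the share of peaks inside the body (13.3%, 2 of 15) were Cdh8, Pik3c3 and Robo1, each with 1 of 8 (12.5%). Cdh8 encodes a cadherin of neuronal adhesion and Robo1 an axon guidance receptor, while Pik3c3 encodes a lipid kinase of membrane traffic. All 8 peaks of each were separate sites, without a run.

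Genes linked to the family, not all of them its binding partners, were counted in the same way. This partner list had 26 genes, namely contactins, proteins of the node and juxtaparanode, and the neurexins with their ligands and adaptors. Any assigned peak was found for 15 of them (57.7%, against 22.7% of coding genes) and one inside the body for 13 (50.0%, against 11.7%). Many of these genes are long as well, and no match on length was made. Of the contactins, 4 of 6 had a peak and 2 of 6 had one inside (Cntn5 and Cntn6). Cntn2, the partner of Cntnap2, had none, and Cntn1, the partner of Cntnap1, had 2 peaks outside the body, the higher of 11 against 1. Of the 12 node and juxtaparanode partners 5 had a peak, and Kcna1 and Kcna2, the potassium channels held by Cntnap2, had none. Of the 8 neurexins, ligands and adaptors 6 had a peak, each inside the body.

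Nrxn3, a presynaptic neurexin, had 6 peaks, all inside its 1382 kb body, the highest of 16 against 1 in an LTR element. This was the only peak of 15 or more in a gene of the partner list. Nlgn1, a neuroligin that neurexins bind, had 3 of 6 inside, the highest of 14 against 1. Nrxn2, another neurexin, had 1, of 13 against 1. Apba1, an adaptor of the presynaptic terminal, held 2, the higher of 12 against 1. Cntn5 held 2 inside, the higher of 9 against 2, and Cntn6 held 1, of 12 against 1. Dlg2, a scaffold protein that binds potassium channels, held 1 inside, of 11 against 2. In density, Nrxn3 (4.34 per Mb) and Nlgn1 (3.33) stood beside Cntnap5a (3.35) and Cntnap5b (2.80), and Cntn5 (1.61, in 1244 kb) and Dlg2 (0.736, in 1358 kb) beside Cntnap2 (1.34), all from 1 to 6 peaks a gene.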

How the data were processed

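Per the labels' protocols, DNA of pooled embryos received Illumina adapters and 15 PCR cycles, and fragments near 300 bp were kept. CASAVA, BWA and the build mm9 are named in the submitters' processing notes. For the peak caller, thresholds and scaling, nothing is stated in the sources used here. In the deposited table the authors gave each peak a position on a 10 bp grid, a signal height for each library, a location class, repeat classes and an assigned gene. The authors' heights are whole numbers of unstated scale and were treated as signal, not as reads. Every listed Dnmt1-Dam height was at least 7.

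Peaks were taken by gene name. Of 4903 transcript accessions, 4884 were matched to RefSeq GRCm38.p6, used for names, gene order and printed sequences. The background was 21031 coding genes. Exact Poisson and Clopper-Pearson intervals (95%) were computed with SciPy 1.17.1 and checked on simulated data, and the range of a median is from order statistics. No p-value was computed. The members, the partner list and the rules were chosen with earlier results of these data known. Named were all 7 members, up to 8 partners with a peak inside the body (by peaks inside, then by height), genes assigned a peak in a flank, and the 3 genes with 8 or more peaks nearest to Cntnap5b in the share inside. Some of the items this rule takes are not reported here. The alternatives for LTR alone and for peaks over 100 kb outside were chosen after seeing the data.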

Additional observations from a re-analysis of the deposited data

How the results depend on the processing

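Of 40 recalculated values for 9 results, 25 stayed within the main interval or, for counts, within 1.5 times. The other 15 moved. With height 15 or more, 4 Cntnap peaks were left, with a median height of 15.5 and 75% inside a body. The bodies then had 0.625 peaks per Mb and the flanks 0.2, and 1 gene of the partner list had a peak. With height 9 or more, 14 peaks were left and the flanks had 0.6 per Mb, as most flank peaks lie at 7 or 8. A height limit only removes low peaks, so the fall in counts and densities and the rise in the median follow by construction. Counting any peak in a body or within 100 kb gave 13 peaks in place of 27. Without Cntnap5b, 75% of peaks were inside, 8.33% in retroelements and 25% over 100 kb outside their gene. A pseudocount of 1 lowered the median ratio from 7 to 4.50, by its construction. LTR alone was named at 18.5% of peaks, or 4.35% with 1 peak per 1 kb run. Counts of 0 to 15 peaks a gene limit every density here. No paired analysis was possible because each group is 1 library and no result comes from a test.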
